A study of Mus musculus with 4 samples.

Results

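The genes described here are 10 genes of steroid hormone synthesis in the adrenal cortex, read on 4 microarrays of mouse liver RNA. They are Star, Cyp11a1, Cyp11b1, Cyp21a1, Cyp17a1, Akr1b7, Mc2r, Nr5a1, Fdx1 and Scarb1, out of 37021 gene names with a value on all 4 arrays. All non-control probes carrying one of these gene names were taken, which gave 16 of 56495 probes, with 1 probe for 4 of the genes and 2 probes for the other 6. The genes were selected on earlier results of the same arrays, in which several of them had large ratios in males, so their values are a description and were not tested.

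Steroid hormones are made from cholesterol in a fixed order of steps. Cholesterol enters the cell through lipoprotein receptors, is carried into the mitochondrion, loses its side chain there and is then modified by further cytochrome P450 enzymes and hydroxysteroid dehydrogenases. The pituitary hormone ACTH drives these steps in the adrenal cortex through its receptor, cyclic AMP and the nuclear receptor SF-1. The liver does not make corticosteroids from cholesterol but takes up cholesterol and breaks steroids down, and some of the genes of this pathway have roles in both organs.

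Each array held liver RNA pooled from 5 wild-type C57BL/6 mice of 1 sex, with an age of 6 weeks in the labels. Aristolochic acid I (AAI), a nephrotoxic and carcinogenic plant compound, was injected intraperitoneally on 5 days per week for 3 weeks at 5 mg/kg/day in females and 2 mg/kg/day in males, and corn oil, the vehicle, was given to the control group of each sex. A single array stood for each group, so differences between mice were averaged in the pool and nothing could be tested, and sex cannot be told apart from dose in any difference between the AAI groups. Values are log2 of the processed spot intensity after quantile normalization. Arrays are named control and AAI by sex. A ratio is the AAI value minus the control value within a sex on the log2 scale, and the linear fold is given beside the larger ones.

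A probe was compared where the scanner marked it well above background on either array, and where the other array was not above background the ratio is a lower bound. As a technical measure of error, ratios were compared between probes of the same gene, whose median SD was 0.25 in females and 0.24 in males on the log2 scale. The 95th percentile of this SD was 0.80 and 0.94. The spread between probes named below is the median SD, and it does not cover differences between pools. The share of probes well above background was between 74.6% and 81.4%, with the lowest on the array of AAI males. The liver label was met on every array, since all 10 listed liver genes were well above background and within 2-fold of their control in both sexes. Genes of another tissue stood apart on the same arrays. All 12 listed skeletal muscle genes were at least 2-fold higher with AAI in both sexes, and their summed normalized intensity was 1511 and 48737 in control and AAI females and 6280 and 389921 in males. In bulk RNA, fewer cells of a type and less RNA per cell cannot be told apart.

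The sequences of 5 probes are printed here, chosen because their translated frame was read as coding sequence. Among them the Cyp11a1 probe carried a large ratio in males, whereas the other 4, from further steps of the pathway, did not. The other Cyp21a1 probe, with a ratio of 3.78 in males, is not printed. No base is singled out in capitals. They come from the array files, written 5′ to 3′ in the sense of the transcript.
Cyp11a1: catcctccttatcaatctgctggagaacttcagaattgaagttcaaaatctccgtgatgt
Cyp21a1, second probe: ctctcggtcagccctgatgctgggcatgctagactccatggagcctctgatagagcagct
Cyp17a1: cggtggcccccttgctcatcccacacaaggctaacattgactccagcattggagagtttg
Fdx1, second probe: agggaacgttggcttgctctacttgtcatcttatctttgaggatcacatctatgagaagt
Scarb1, second probe: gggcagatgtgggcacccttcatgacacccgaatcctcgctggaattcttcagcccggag

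On mouse genome build mm9 the Cyp11a1 probe spans chr9:57874074-57874544 on the plus strand. Its 60 bases cover 471 bases of the genome, so it crosses at least 1 intron and reads spliced RNA. The Cyp17a1 probe does the same over 614 bases at chr19:46742594-46743207 on the minus strand. The other 3 are contiguous, at chr17:34940513-34940572 for Cyp21a1, chr9:51756743-51756802 for Fdx1 and chr5:125777604-125777663 for Scarb1, all on the minus strand. Of the 16 probes, 14 carried a RefSeq accession, and all of these had the same gene symbol in the RefSeq table.

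In males, 6 of the 10 genes were at least 2-fold higher in the AAI pool than in the control pool and 1 was lower, against 3.51% and 4.59% of the 30539 genes compared. The 6 were Star, Cyp11a1, Cyp21a1, Cyp11b1, Akr1b7 and Nr5a1, and the lower one was Mc2r. The median log2 ratio of the 10 genes was 2.48, beside 0.00 over all genes. In females, 0 genes were at least 2-fold higher and 0 were lower, against 1.37% and 3.09% of 31682 genes, and the median was -0.06 beside 0.04. The males' shares served in choosing these genes and nothing is read from them. Among all genes past 2-fold in females 69.3% were lower with AAI, and this share was 54.5% with arrays scaled by their 75th percentile instead.

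**Figure D1:**
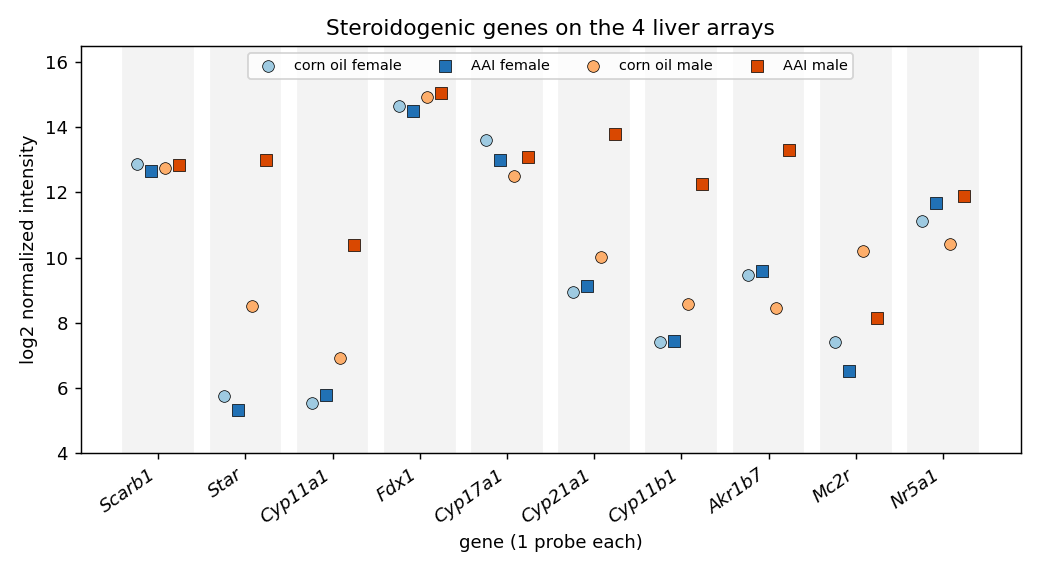
Log2 normalized intensity (y axis) of the brightest probe of each of the 10 steroidogenic genes (x axis) on the 4 arrays, with 1 point per array, circles for corn oil and squares for AAI. For Star, Cyp11a1, Cyp21a1, Cyp11b1 and Akr1b7 the AAI male array lies well above the other 3, whereas Scarb1 and Fdx1 lie close together on all 4.

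The first step is cholesterol supply. Scarb1, the high-density lipoprotein receptor through which liver and steroidogenic cells take up cholesteryl esters, had log2 signals of 12.87 in control and 12.66 in AAI females, and 12.74 and 12.85 in males. The ratios, -0.21 and 0.12, lay within the spread between probes. Its second probe gave 0.29 in females and 0.62 in males.

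Star, the protein that delivers cholesterol to the inner mitochondrial membrane, behaved differently. Its signal (mm9 chr8:26924735-26924794) was 5.74 in control females, 5.31 in AAI females, 8.53 in control males and 13.01 in AAI males. Before normalization these were processed intensities of 49.6, 45.1, 402 and 7820. The array of AAI males was 22.4-fold above that of its control and ranked 51 from the top among the 28433 genes above background on both male arrays. The females differed by -0.43, in the other direction, but this ratio was -0.25 with 75th-percentile scaling and -0.13 with normexp background correction, within the spread between probes. Both female arrays lay below both male arrays.

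Cyp11a1, the side-chain cleavage enzyme that makes pregnenolone from cholesterol, had signals of 5.54 and 5.79 in control and AAI females and 6.91 and 10.38 in males. The ratios were 0.25 and 3.47, an 11.1-fold difference in males that ranked 112 from the top. The females were thus as far apart as probes of 1 gene usually are. The second probe with this gene name, annotated to the cDNA AK137397 at chr9:57854517-57854576, lies outside the span of the first. Its signals were 4.46 and 4.33 in control and AAI females and 4.85 and 3.97 in males. The lowest signals well above background lay between 3.81 and 4.70 on the 4 arrays. It gave -0.13 in females and was not above background in AAI males, with a bound of -0.15 there. The pair thus did not move together, but a probe this dim says little about direction.

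Cyp11a1 receives its electrons from Fdx1, a small mitochondrial ferredoxin that also serves P450 enzymes of bile acid synthesis in the liver. Fdx1 had signals of 14.64, 14.51, 14.93 and 15.05 on the arrays of control and AAI females and control and AAI males. Its ratios were -0.13 and 0.12, and -0.05 and 0.17 by the second probe, all within the spread between probes.

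The remaining P450 enzymes divide into those of the corticosteroid branch and Cyp17a1. Cyp17a1, the 17α-hydroxylase needed for androgens, is scarcely active in the adrenal of adult mice, which therefore make corticosterone. It had signals of 13.60 in control and 13.01 in AAI females and of 12.50 and 13.10 in males. The ratios were -0.59 and 0.60, opposite in sign and under 2-fold in both sexes. The control arrays were the most unlike, with the male array 2.15-fold below the female array.

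Cyp21a1, the 21-hydroxylase of the corticosteroid branch, had signals of 8.96, 9.14, 10.01 and 13.80 in the same order of groups by its brightest probe (chr17:34938298-34938357). The ratio was 0.18 in females and 3.78, a 13.8-fold difference, in males. The second probe, printed above, had 6.80, 6.13, 6.90 and 7.36 and ratios of -0.67 and 0.46. Both probes are annotated to the same transcript, NM_009995, and they disagreed by far more than the usual spread in males. The mouse genome also carries a closely similar pseudogene of Cyp21a1, so the value of either probe is uncertain.

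Cyp11b1, the 11β-hydroxylase that completes corticosterone, has a single probe (chr15:74665330-74665389). Its signal was 7.42 in control females, 7.43 in AAI females, 8.57 in control males and 12.26 in AAI males. The females did not differ, with a ratio of 0.00, and the AAI males were 12.9-fold above their control. The order of the 4 arrays was thus the same as for Cyp21a1 and Cyp11a1, with the females lowest and close together. The aldosterone synthase gene Cyp11b2, a near relative of Cyp11b1 that marks the outermost zone of the cortex, was not above background in either female group and had a ratio of -0.12 in males, with signals of 4.94 and 4.82.

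Akr1b7, an aldose reductase-like enzyme of the mouse adrenal cortex that is induced by ACTH, had the largest ratio of the 10 genes. Its signal (chr6:34372905-34372964) was 9.46 and 9.59 in control and AAI females and 8.47 and 13.32 in males, as processed intensities 671, 779, 385 and 9830. The ratio was 0.13 in females and 4.85, or 28.8-fold, in males, rank 43 from the top. Unlike Star and the P450 enzymes with large ratios, Akr1b7 was lower in control males than in either female group.

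The last pair are regulators. Nr5a1 encodes SF-1, the nuclear receptor that binds upstream of most steroidogenic genes. Its brightest probe (chr2:38548180-38548239) had 11.13, 11.68, 10.43 and 11.91, with ratios of 0.55 in females and 1.48, or 2.79-fold, in males. The second probe, annotated to an Ensembl transcript, was far dimmer, with 5.92, 4.62, 5.51 and 5.23. It gave -1.31 in females and -0.28 in males, so the direction for Nr5a1 depended on the probe, but the 2 probes do not weigh equally.

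Mc2r, the ACTH receptor, was split as well. Its brightest probe had signals of 7.42 and 6.53 in control and AAI females and 10.21 and 8.13 in males, a ratio of -0.89 in females and a 4.21-fold lower signal in AAI males. The second probe was above background on the array of AAI males and on no other, where it was at least 15.98-fold higher than in control males. Averaged over both probes, the ratio in males was 1.20 in place of -2.07. No direction can be given for this gene. Mrap, the accessory protein that brings the receptor to the cell surface, had ratios of -0.07 and -0.19.

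**Figure D2:**
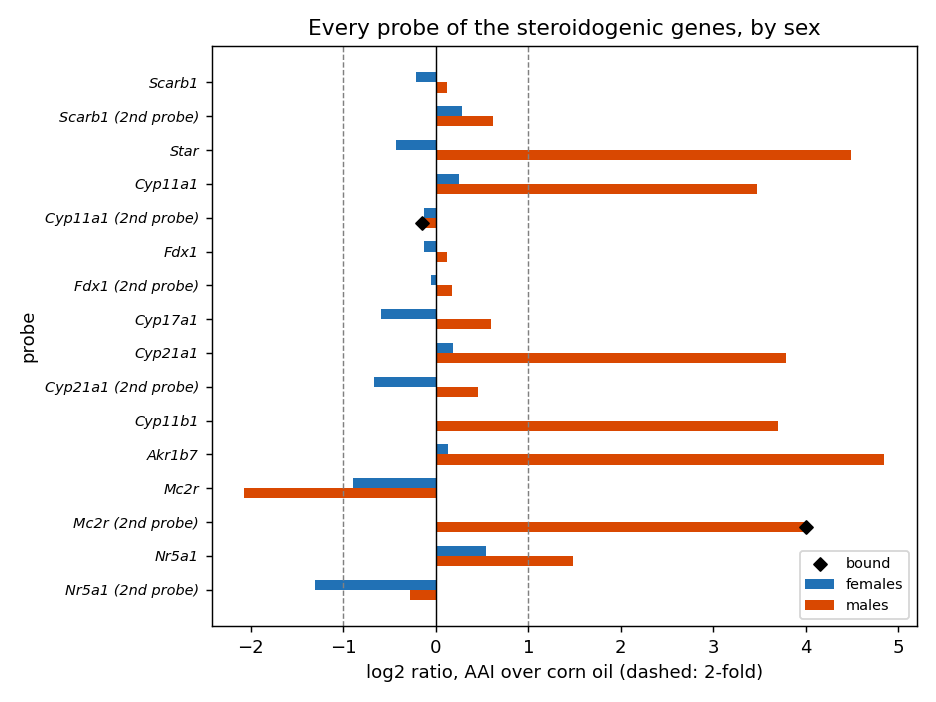
Log2 ratio of AAI over corn oil (x axis) for each of the 16 probes of the 10 genes (y axis), blue for females and orange for males. Diamonds mark lower bounds and dashed lines 2-fold. The brightest probes of Star, Cyp11a1, Cyp21a1, Cyp11b1 and Akr1b7 reach between 3.47 and 4.85 in males and stay within 0.43 of 0 in females, and the probes of Mc2r point in opposite directions in males.

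The control arrays of the sexes already differed for some of these genes. Set against control females, control males had 5 of the 10 genes at least 2-fold higher and 1 lower, against 3.83% and 1.86% of 30891 genes. By the brightest probes these were Star at 6.88-fold, Mc2r at 6.89-fold, Cyp11a1 at 2.60-fold, Cyp11b1 at 2.22-fold and Cyp21a1 at 2.08-fold, with Cyp17a1 lower. The second probes gave 1.31-fold for Cyp11a1 and 1.07-fold for Cyp21a1, and that of Mc2r was above background in neither control group. Akr1b7 was 1.99-fold lower, just inside the limit. By their brightest probes, Star, Cyp11a1, Cyp11b1 and Cyp21a1 thus had control arrays apart in the same direction as the ratio in males. For Akr1b7 and Nr5a1 they were apart in the opposite one. The ratios in males and this gap share the control male array.

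**Figure D3:**
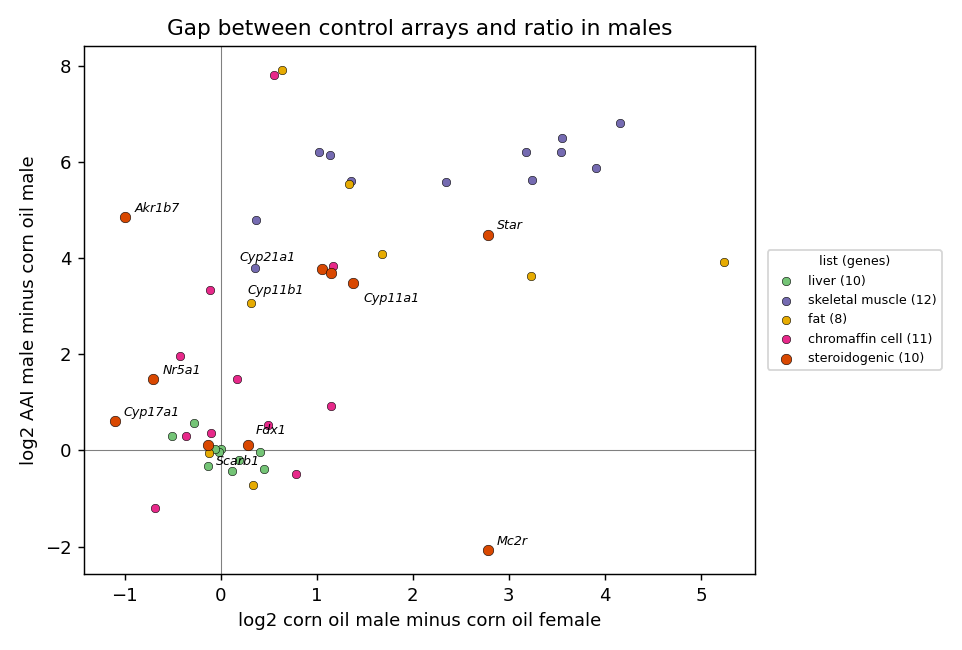
Log2 gap between the control male and female arrays (x axis) against the log2 ratio of AAI over corn oil in males (y axis) for the steroidogenic genes and 4 marker lists, 1 point per gene, bounds included as their value. Both axes use the control male array, so no relation is read from the plot. Star lies at 2.78 and 4.49, Akr1b7 at -0.995 and 4.85, and the liver genes lie around 0 on both axes.

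A list of 25 further genes of the pathway covered cholesterol handling, other enzymes, electron donors and regulators. In males 4 were at least 2-fold higher and 3 lower, with a median of 0.09, and in females 0 were higher and 1 was lower, with a median of 0.23. Hsd3b1, the 3β-hydroxysteroid dehydrogenase of adrenal and gonad, followed the corticosteroid enzymes. Its signals were 6.23 and 6.46 in control and AAI females and 10.16 and 14.11 in males, a ratio of 0.24 and of 3.95, or 15.4-fold. The second Hsd3b1 probe gave 0.29 and 2.69. Members of the Hsd3b family are similar in sequence and part of the signal may be shared.

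Fdxr, the reductase that passes electrons to Fdx1, had ratios of 0.33 and 1.24. Hsd3b6 had 0.39 and 1.03. Nr4a1, an immediate early nuclear receptor that responds to ACTH and to many other stimuli, had -1.89 in females and 1.53 in males. Its control female and AAI male arrays were close, at 10.74 and 10.51, and so were the other two, at 8.84 and 8.98.

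The 3 lower genes in males were Hsd17b3, the testicular enzyme that makes testosterone, with -2.38, the hormone-sensitive lipase gene Lipe with -1.30 and the cholesterol exporter Abca1 with -1.02. The RefSeq probe of Lipe gave 0.15 in males and the remaining probe a bound of -2.72, so that the result for Lipe depended on the probe. Most of the list differed little. The transport protein Stard3, the mitochondrial protein Tspo and the oxidoreductase Por had ratios of 0.10, 0.51 and 0.50 in males, and Nr0b1, a repressor of SF-1, had -0.30.

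Genes that mark zones or progenitors of the adrenal cortex were mixed. Of the 9 listed, 1 was at least 2-fold higher and 1 lower in males, with a median of 0.26 over the 8 compared, and 1 was higher in females, with a median of -0.03. Dlk1, a Notch-like protein of the outer cortex that is also found in the medulla and in preadipocytes, had signals of 5.97, 6.66, 6.65 and 10.74 and a ratio of 4.08 in males, and 2.20 by its other probe. Pik3c2g, a kinase gene also active in liver, had -1.72 in males, and its other probes lay between -0.58 and 0.18. Inha, an inhibin subunit, had 1.34 in females and 0.59 in males.

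Markers of chromaffin cells, the catecholamine-making cells of the adrenal medulla, were split, and some were higher in AAI males as several steroidogenic genes were. In males 5 of 11 were at least 2-fold higher and 1 was lower, with a median of 0.93, and in females 0 were higher and 2 lower, with a median of 0.06. The summed normalized intensity of the list was 18174 and 13798 in control and AAI females and 13870 and 25498 in males. Ddc, which is also a liver enzyme, weighed most in the sums of both female groups and control males. Its signals there, 13.76, 13.21 and 13.08, were the highest of the list. Chgb, a granin of secretory granules, was not above background in control females and had signals of 4.90 and 12.70 in males, a ratio of 7.79. Chga, the other main granin, had 7.51, 7.56, 8.67 and 12.51 and a ratio of 3.84. Neuropeptide Npy had 3.33 and Pnmt, the enzyme that makes adrenaline, 1.97. Cyb561, an electron carrier of the granule membrane, had 1.48. For tyrosine hydroxylase Th and dopamine β-hydroxylase Dbh, the enzymes that define catecholamine synthesis, the value depended on the probe. Their brightest probes had 0.54 and 0.37 in males, whereas the second Th probe had a bound of 3.00 and the second Dbh probe had 5.11, with 0.98 in females. Ddc had -1.19, and -0.47 by its other probe. Slc18a1, Slc18a2 and Phox2a stayed under 2-fold in males by their brightest probes, with 0.29, -0.48 and 0.93. The 2 lower genes in females were Slc18a2 with -1.11 and Phox2a with a bound of -1.39. The part of these markers in the result was not tested.

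Fat and muscle markers were higher on the same array. In males 6 of 8 fat genes were at least 2-fold higher, with a median of 3.77, and their summed intensity was 4811 and 5968 in control and AAI females and 8193 and 88501 in males. Ucp1, the uncoupling protein that defines brown fat, was not above background in either female group and had 4.98 and 12.89 in males, a ratio of 7.91. Cidea had 5.54, Retn 4.08 and Cfd 3.91, and Lep had -0.06. Plin1 had -0.72 by its brightest probe, annotated to a cDNA, but 2.15 by its RefSeq probe and a bound of 1.46 by the remaining one, so that its direction depended on the probe.

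In females 3 fat genes were higher, with a median of 0.96. These were Cfd with 3.51, Retn with 1.13 and Adipoq, at least 2.14-fold higher. The muscle genes had medians of 5.45 in females and 6.01 in males. In females they were therefore higher while the steroidogenic genes were not. In control males 10 of the 12 muscle genes and 4 of the 8 fat genes were also at least 2-fold above control females. The part of fat and muscle RNA in the result was not tested.

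Among markers of kidney, testis, ovary and exocrine pancreas, 0 were at least 2-fold higher in either sex. Some had high signals on all 4 arrays. In control and AAI females and control and AAI males, Foxl2 of the ovary list had 15.31, 15.19, 15.32 and 15.35. Cela1 of the pancreas list had 12.89, 12.85, 13.47 and 12.65. Such probes could hardly show a small amount of RNA from those organs, and its presence was not tested. In males, 0 of 9 kidney genes compared were at least 2-fold higher and 2 were lower, Lrp2 with -1.41 and Slc12a3 with -1.09. The other Lrp2 probes lay between -1.28 and 0.27. Of the 7 testis genes compared 0 were higher and 1, Hsd17b3, was lower, and of 7 ovary and 7 exocrine pancreas genes 0 were higher and 0 lower. Their medians in males were -0.20 for kidney, -0.18 for testis, 0.03 for ovary and 0.19 for pancreas. In females the medians were 0.24, -0.11, 0.00 and 0.25, and the single gene past 2-fold was the ovary gene Gdf9 with a bound of -2.37.

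**Figure D4:**
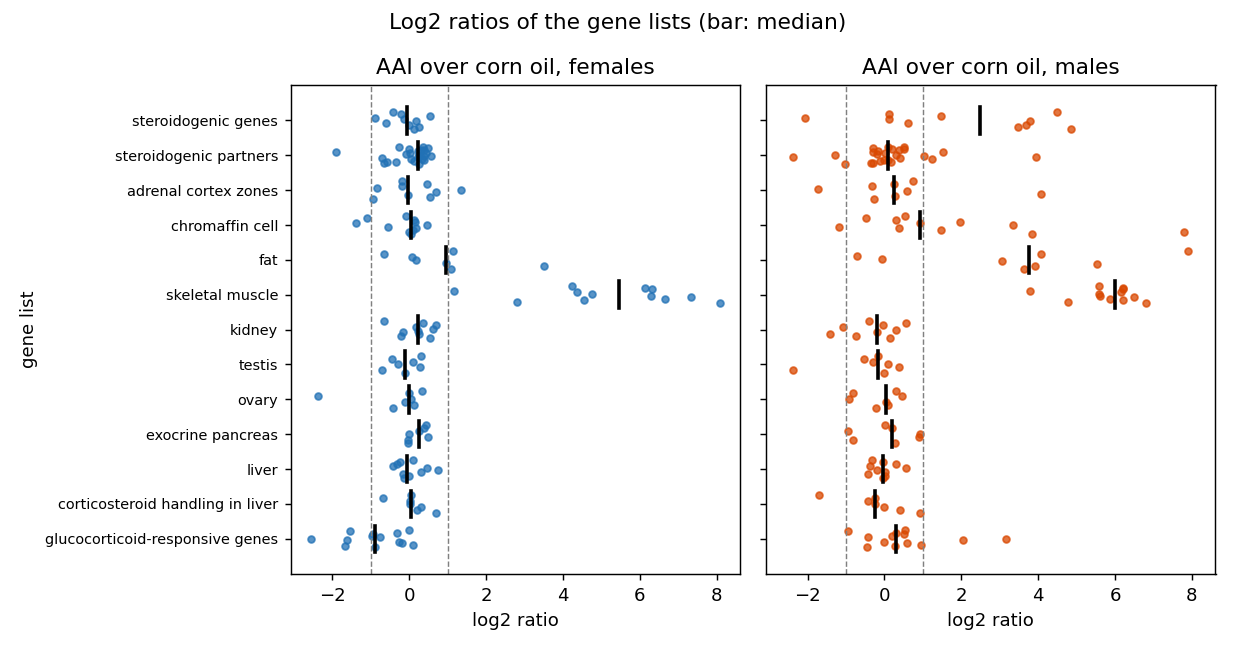
Log2 ratio of AAI over corn oil (x axis) for the genes of each list (y axis), in females on the left and males on the right, with 1 point per gene, black bars for medians and dashed lines at 2-fold. The steroidogenic genes have a median of -0.06 in females and 2.48 in males, the skeletal muscle genes 5.45 and 6.01, and the liver genes stay within 2-fold.

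The genes whose pattern over the 4 arrays was most like that of Cyp11b1 were found by the Euclidean distance between their centred log2 signals, over 32105 genes. The measure rests on 4 values per gene and is a description. The nearest was Chga at a distance of 0.13, then Cyp21a1 at 0.20 and Cyp11a1 at 0.24. They were followed by C230004F18Rik, AI854517, Gm36223, Arxes2, Tcf15, Retnla and Tmem35, at 0.27 to 0.76. Of these 7, the first 5 were above background on the array of AAI males and on no other. They passed the filter through that array alone, and their values on the other arrays, which enter the distance, were not above background. Akr1b7 was in place 107 and Star in place 230, since the controls of the sexes lay further apart for Star and in the other order for Akr1b7. Nr5a1 and Fdx1 were in places 2128 and 2182.

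The last lists concern corticosteroids in the liver itself. Among 7 genes of corticosteroid handling, 0 were at least 2-fold higher and 1 was lower in males, with a median of -0.24, and 0 passed 2-fold in females, with a median of 0.05. The lower gene was the 5α-reductase gene Srd5a1, which helps to inactivate steroids, with -1.70. The glucocorticoid receptor gene Nr3c1 had 0.01 in females and -0.24 in males, and Hsd11b1, which regenerates active corticosterone, had 0.21 and 0.41. Akr1d1, a 5β-reductase, had 0.70 and 0.93.

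Of 13 genes that respond to glucocorticoids, 2 were at least 2-fold higher in males and 0 lower, with a median of 0.30, and 0 were higher and 4 lower in females, with a median of -0.89. The 2 were the metallothioneins Mt2 and Mt1, with 3.17 and 2.04, which also respond to metals. The 4 in females were Mt2 with -2.55, Ddit4 with -1.67, Mt1 with -1.62 and Tsc22d3 with -1.55. In males 9 ratios were above 0 and 4 below. Those below were Tsc22d3 with -0.96, Angptl4 with -0.46, Pck1 with -0.43 and Klf9 with -0.02. Another Tsc22d3 probe gave -1.23 in females and -0.45 in males. The second Mt1 probe gave 0.09 in females and 1.65 in males, so the call for Mt1 in females rested on 1 probe. Mt2 had signals of 17.91, 15.37, 14.53 and 17.70, so the control arrays themselves differed by 3.38. Fkbp5, a co-chaperone of the receptor, had -0.18 and 0.58, with other probes at -0.82 and 0.83 and at 0.32 and -0.06, and Tat, a liver enzyme under glucocorticoid control, had -0.33 and 0.30.

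Promoter windows of build GRCm38.p6 from RefSeq, with 250 bases before and 50 after the start of a transcript, were held for 3 of the 10 genes, namely Akr1b7, Cyp11a1 with 2 windows, and Fdx1. They were searched on both strands for AAGGTCA and CAAGGNCA, letters bound by SF-1, and for the cyclic AMP response element TGACGTCA and its part TGACG. The first pair share the letters AAGGTCA where N is T, and TGACG lies within TGACGTCA. AAGGTCA was found once, on the minus strand of the Akr1b7 window at -248 to -242, and TGACG once, on the minus strand of the Cyp11a1 window at -50 to -46. Over all 32851 windows, AAGGTCA was present in 4.72%, CAAGGNCA in 6.71%, TGACGTCA in 1.79% and TGACG in 20.8%. A match is only a match of letters, and the other windows held none.
The upstream parts of the matched windows, chr6:34412112-34412361 for Akr1b7 and chr9:57997774-57998023 for Cyp11a1, are shown because both genes were among those with large ratios in males. Both lie on the plus strand, and capitals mark the matched letters.
Akr1b7: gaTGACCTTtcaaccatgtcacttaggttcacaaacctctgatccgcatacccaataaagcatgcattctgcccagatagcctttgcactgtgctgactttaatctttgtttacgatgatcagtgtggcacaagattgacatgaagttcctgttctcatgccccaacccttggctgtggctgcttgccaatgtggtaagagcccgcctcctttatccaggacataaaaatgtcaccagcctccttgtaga
Cyp11a1: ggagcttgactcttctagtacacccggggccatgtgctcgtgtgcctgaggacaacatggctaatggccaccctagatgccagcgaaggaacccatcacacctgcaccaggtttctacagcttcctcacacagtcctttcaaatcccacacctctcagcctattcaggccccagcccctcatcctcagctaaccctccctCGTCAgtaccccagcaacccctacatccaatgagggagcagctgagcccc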

How the data were processed

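Processed spot intensity values of 4 single-colour arrays were deposited by the authors, who scanned the arrays and read them with Feature Extraction 10.5.1.1. These intensities are linear, follow subtraction of the background and a correction of trends within the array, and are not normalized between arrays. The probe coordinates are those of build mm9 in the files. A further deposited table, with the authors' raw and quantile normalized intensity, was used as an alternative. Groups were taken from the sample labels.

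Control and outlier spots (between 70 and 234 per array) were left out, spots of a probe were averaged, and log2 values were quantile normalized over the 4 arrays in Python 3.11.15 with numpy 2.4.6 and pandas 2.3.3. No spot was saturated. On the arrays of control females and AAI males, 26 and 92 spots held a background value instead of a signal, and 0 of them belonged to the 10 genes. A gene was represented by its brightest probe. It was called where the log2 ratio reached 1 in size if well above background on either array. The bound used, on the other array, the higher of the lowest signal well above background and the probe's own signal. Quantile normalization and the 2-fold call were tested on simulated data, for probes above background on every array and with noise below the spread between probes. The bound and the choice of the brightest probe were not tested in this way.

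The 10 genes and all lists were chosen with earlier results of these data known. A chromaffin cell gene of the lists is not reported here and was left out of its list's counts. All 10 genes were described with all probes, then up to 4 genes per list with the largest ratio in size, more in lists with 5 or fewer called genes, and the 10 genes nearest to Cyp11b1. Genes named beyond that rule, given for their role or for a lack of change, were chosen after their values were seen. The alternatives were 75th-percentile scaling, normexp (limma 3.58.1 in R 4.3.3, offset 50), no trend correction, the authors' normalized values, averaged probes, no filter or a stricter filter on dim probes, replaced spots left out and a 3-fold threshold. The arrays give no counts, and their number limits the precision.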

Additional observations from a re-analysis of the deposited data

Results flagged for a closer look

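The ratios of 2 genes had opposite signs in females and males, each beyond the median spread between probes of 1 gene as reported. For Star the ratio was -0.43 in females and 4.49 in males, 4.92 apart on the log2 scale, but the ratio in females was -0.25 with 75th-percentile scaling and -0.13 with normexp, within that spread. For Cyp17a1 it was -0.59 and 0.60, 1.19 apart. The 95th percentile of the SD between probes was 0.80 in females and 0.94 in males. Of these ratios, only that of Star in males lay beyond it. Neither difference was tested, and the sexes were given different doses.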

How the results depend on the processing

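The count of genes at least 2-fold higher in males was 5 or 6 under the 9 alternatives, and in females it was 0 higher and 0 lower under all 9. The median log2 ratio in males was 2.05 with normexp background correction and 1.25 with probes of a gene averaged, where 0 genes were lower. Averaging also turned Mc2r in males from -2.07 to 1.20, because its probes disagreed, and brought Cyp11a1 to 1.30, Cyp21a1 to 2.12 and Nr5a1 to 0.60. At 3-fold, Nr5a1 was no longer called. Of 212 values recomputed, 194 stayed within the spread between probes or, for counts, within 1.5 times. Another 17 moved further, and 1, that of Mc2r in males, changed sign. The changes of filter could not alter the values of the 10 genes, whose brightest probes were above background on every array. Leaving out replaced spots removed 0 of their spots. Agreement under these settings was therefore largely fixed in advance. Over all genes, 434 higher and 978 lower calls were made in females, which became 139 and 343 with normexp and 1078 and 1433 without a filter on dim probes. In males the 1071 higher and 1401 lower calls became 554 and 643 with normexp, and 1793 and 2240 without the filter. With probes averaged, females had 719 higher calls. At 3-fold, 127 were higher and 225 lower in females, and 471 and 509 in males. The cause of the shifts under normexp was not tested. No paired analysis was possible because each group had 1 array. For the same reason no array could be left out in turn.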
